A study of Mus musculus with 12 samples.

Results

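Hippocampal gene expression was compared between mice given stigmasterol and mice given vehicle 6 h after the injection, gene by gene across the transcriptome. The comparison was defined by its sample labels, stigmasterol replicates 13, 22 and 23 and vehicle replicates 12, 14 and 21, which are 6 of the 12 libraries of the study. All animals were wild-type C57BL/6 mice, the injection was intraperitoneal, and the tissue was the dissected hippocampus. The design text counts 3 animals per group, and does not say whether any library held a pool. The sample titles, the agent field and the study title name stigmasterol, whereas the treatment protocol names beta-sitosterol at 100 mg/kg, a closely related sterol that lacks the double bond in the side chain. The name stigmasterol is used for the treated group throughout, and which sterol was injected cannot be told from the labels. Sex, age, the composition of the vehicle, the clock time of the injection and the strandedness of the libraries are not given in the sources used here. The remaining 6 libraries, 3 stigmasterol and 3 vehicle samples taken 1 h after the injection, entered the fit to share its estimate of spread and gave the comparison between the time points.

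Stigmasterol is a plant sterol that mammals take up from food, hardly retain and cannot make. Cells sense membrane cholesterol through SCAP and the INSIG proteins, which hold the transcription factor SREBP-2 in the endoplasmic reticulum while sterol is plentiful and release it to switch on cholesterol synthesis and uptake when sterol is scarce. Oxidised sterols activate the liver X receptors (LXR), which switch on sterol export, and side-chain unsaturated plant sterols such as stigmasterol have been described as acting on both arms in cultured cells. The brain makes its own cholesterol behind the blood-brain barrier, astrocytes ship it on apolipoprotein E, and neurons dispose of it by hydroxylation.

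The sterol sensor acts through a short DNA element, and the promoter of Hmgcs1, which encodes the cytosolic synthase that starts the mevalonate pathway, shows it. The stretch lies on the plus strand at chr13:119690154-119690273 (GRCm38.p6, sequence from RefSeq). The capitals mark the match to the sterol regulatory motif TCACNCCAC, which begins 137 bases before the annotated start.
Hmgcs1 promoter: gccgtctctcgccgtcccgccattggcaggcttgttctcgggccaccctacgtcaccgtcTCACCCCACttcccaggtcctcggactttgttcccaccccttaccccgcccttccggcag
The motif was searched on both strands in the 250 bases before the start and was present in 1.05% of the 32851 promoters of the table. Of the 28 genes of the cholesterol list described below, 18 had a promoter in the table and 1 of them, Hmgcs1, held the motif.

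No gene passed the test at 6 h. Of 18382 genes tested with edgeR, 0 (0%) had an adjusted p below 0.05, and the smallest adjusted p was 0.950. An unadjusted p below 0.05 was found for 754 genes (4.1%), 301 of them higher (1.64%) and 453 lower (2.46%) with stigmasterol. All 3 stigmasterol libraries lay outside the vehicle range for 1511 genes (8.22%), above it for 637 (3.47%) and below it for 874 (4.75%). The fold changes divided evenly around 0, with 9200 genes higher (50%) and 9182 lower (50%). The DESeq2 Wald test called 4 of 18378 genes (0.0218%), namely Jund, Mrfap1 and Hnrnpa0, which were higher, and Spaca6, which was lower.

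The sizes of the differences were small. Among the 15095 genes averaging 1 CPM or more (CPM is the count scaled to the size of the library), the log2 fold change lay between -0.27 and 0.22 for the genes from the 5th to the 95th percentile. The 95% interval of the fold change stayed within 1.5-fold in either direction for 12555 of these genes (83.2%) and within 2-fold for 14671 (97.2%). A log2 fold change beyond 1 was fitted for 5 genes above and 1 below. Among the genes that carry a name, Lcn2 and Otoa were high in stigmasterol replicate 23 alone, Lbhd2 was high in stigmasterol replicate 22 alone, Capn11 was high in vehicle replicates 12 and 14, and Scand1 was higher in all 3 stigmasterol libraries. The median standard error (SE) of a log2 fold change was 0.12. In bulk tissue, fewer cells of a type and less RNA per cell cannot be told apart, and this holds for every difference below.

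**Figure D1:**
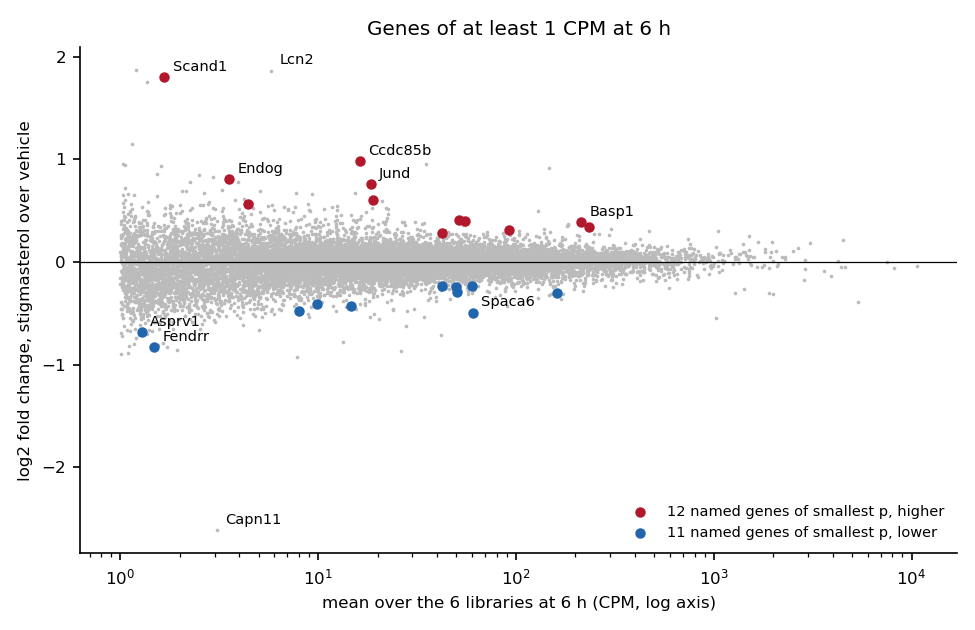
Log2 fold change of stigmasterol over vehicle at 6 h (vertical axis) against the mean CPM of the 6 libraries (horizontal log axis) for the 15095 genes of at least 1 CPM (grey points). Red and blue points are the 12 higher and 11 lower named genes of smallest p, and most genes lie close to 0.

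Stigmasterol replicates 22 and 23 were the most distant pair among the 6 libraries. Total counts were between 27613253 and 34805747 per library. The first principal component of the 6 libraries held 43.7% of the variance and set stigmasterol replicate 22 (score -24.1) opposite stigmasterol replicate 23 (score 23.2), with the other 4 libraries between -2.31 and 2.67. The standard deviation of the log2 difference over genes was 0.41 between these replicates, 0.26 and 0.28 between replicate 13 and each of them, 0.22 to 0.27 between vehicle libraries and 0.22 to 0.30 between libraries of different groups. Their trends with GC content also lay at opposite ends, at a slope of 0.29 log2 units per 10 points of GC for replicate 22 and -0.15 for replicate 23, against -0.04 to 0.10 in the other 4 libraries. Without replicate 23, the number of genes with an unadjusted p below 0.05 was 1997 and the smallest adjusted p 0.321, with 0 genes past the threshold. Without vehicle replicate 14 that number was 494.

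The genes that stood out most on the higher side were led by Jund, the AP-1 transcription factor subunit that neurons express without stimulation. In all accounts below, values are CPM in stigmasterol replicates 13, 22 and 23 and then in vehicle replicates 12, 14 and 21. Jund (chr8, 70698949 to 70700616, GRCm38) was at 22.1, 27.7 and 19.8 CPM against 13.6, 12.5 and 14.9 CPM. Each stigmasterol library was above every vehicle library, and the log2 fold change was 0.76 ± 0.15 (SE), with a 95% interval from 0.43 to 1.09 and an edgeR adjusted p = 0.950. DESeq2 gave an adjusted p = 0.0188. Jund overlaps the antisense transcript Gm11175, and since the strandedness is not given, reads of the pair cannot be told apart.

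Hnrnpa0, an RNA-binding protein that attaches to AU-rich messages, was at 55.3, 63.3 and 57.8 CPM against 47.2, 42.4 and 43.6 CPM. Its groups did not overlap, with a log2 fold change of 0.41 ± 0.08 (edgeR adjusted p = 0.950, DESeq2 adjusted p = 0.0477). Mrfap1, a small nuclear protein that binds the MORF4 family, was at 97.7, 106 and 105 CPM against 82.5, 78.7 and 87.5 CPM. The stigmasterol libraries lay close together and above the vehicle range, and the log2 fold change was 0.31 ± 0.06 (edgeR adjusted p = 0.950, DESeq2 adjusted p = 0.0188). Basp1, a membrane-bound growth cone protein abundant in axon endings, was at 250, 245 and 234 CPM against 171, 187 and 199 CPM. This was the most abundant gene of the higher set together with Rhob, and its log2 fold change was 0.39 ± 0.08 (edgeR adjusted p = 1.00, DESeq2 adjusted p = 0.0596).

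Endog, a mitochondrial nuclease, was at 4.21, 5.51 and 3.8 CPM against 2.44, 2.67 and 2.61 CPM. The vehicle values were tight and the stigmasterol values all higher, with a log2 fold change of 0.81 ± 0.17. Ccdc85b, a coiled-coil protein, was at 19.2, 29.7 and 16.1 CPM against 11, 11.7 and 10.1 CPM (log2 fold change 0.98 ± 0.24), and Grcc10, a short gene of a gene-rich cluster, at 21.5, 27.2 and 19.7 CPM against 15.1, 15.5 and 14.2 CPM (0.61 ± 0.14). Scand1, a SCAN-domain protein, was at 2.32, 4.02 and 1.46 CPM against 0.743, 0.654 and 0.834 CPM (1.80 ± 0.42). In these 4 genes replicate 22 was the highest library and replicate 23 the stigmasterol library nearest to vehicle. Endog, Ccdc85b and Scand1 overlap the genes Spout1, Fosl1 and Cnbd2 on the opposite strand, and Grcc10 overlaps Gm45234 on its own strand, so their counts are uncertain.

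The other members of the set were Rhob, an immediate early small GTPase that acts on endosomes and actin (255, 290 and 242 CPM against 205, 203 and 212 CPM, log2 fold change 0.34 ± 0.09), Cisd1, an iron-sulphur protein of the outer mitochondrial membrane (46.9, 46.3 and 46.4 CPM against 40.8, 37.8 and 35.8 CPM, 0.29 ± 0.07), and Uqcrq, a subunit of respiratory complex III (63.0, 71.8 and 54.8 CPM against 52.7, 48.4 and 42.1 CPM, 0.40 ± 0.11). Cisd1 stands out by its even stigmasterol values. Pcdha9, a clustered protocadherin of neuronal self-recognition, had a log2 fold change of 0.57 ± 0.15, but it shares its constant exons with the other members of the alpha cluster and its count is uncertain. Over the 12 higher genes, replicate 22 was the highest library in 9 and replicate 13 in 3. All 12 stayed higher once the trends of the libraries with GC content and transcript length had been taken out, with log2 fold changes between 0.23 and 1.42. These 12 genes were chosen for groups that do not overlap, so an unchanged sign adds no separate support. Their median transcript length was 1662 bases and their median GC content 55.1%, against 3417 bases and 49.7% over the genes of at least 1 CPM.

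On the lower side Spaca6 had the smallest p. The protein is known from the fusion of sperm with the egg, and in the annotation it spans the microRNA genes Mirlet7e, Mir99b and Mir125a on the same strand (chr17, 17827158 to 17843009, GRCm38). Spaca6 was at 48.8, 47.8 and 54.7 CPM against 68.4, 79.0 and 65.3 CPM. No stigmasterol library reached the vehicle range, and the log2 fold change was -0.49 ± 0.10, with a 95% interval from -0.71 to -0.27 (edgeR adjusted p = 0.950, DESeq2 adjusted p = 0.0477).

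Fyco1, an adaptor that moves autophagosomes along microtubules, was at 140, 144 and 149 CPM against 173, 196 and 164 CPM (log2 fold change -0.30 ± 0.08). Its stigmasterol values were narrow and below all vehicle values. Vwf, the clotting protein stored by endothelial cells, was at 44.3, 47.0 and 45.2 CPM against 58.0, 50.3 and 59.0 CPM (-0.29 ± 0.09). L3mbtl1, a chromatin-compacting reader of methylated histones, was at 13.2, 11 and 13.5 CPM against 16.2, 19.5 and 15 CPM (-0.43 ± 0.12). Ralgapa2, which inactivates the small GTPases of the Ral family, had a log2 fold change of -0.25 ± 0.08, and Fendrr, a long non-coding RNA of the Foxf1 locus, one of -0.82 ± 0.23 at 1.24, 1.00 and 0.942 CPM against 1.90, 1.56 and 2.21 CPM. In the rest of the set, Mapk1ip1 and Iqce had -0.24 ± 0.07 and -0.23 ± 0.07, and the epithelial genes Muc3a, Sbsn and Asprv1 had -0.41 ± 0.11, -0.47 ± 0.13 and -0.68 ± 0.21. Adjusted p was 1.00 for these 10 genes with edgeR. All 11 lower genes given here stayed lower with the GC and length trend removed, between -0.84 and -0.17, and replicate 23 was the stigmasterol library nearest to vehicle in 8 of them. They too were chosen for groups that do not overlap, so the unchanged sign adds no separate support. The median transcript length of these 11 genes was 3763 bases.

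**Figure D2:**
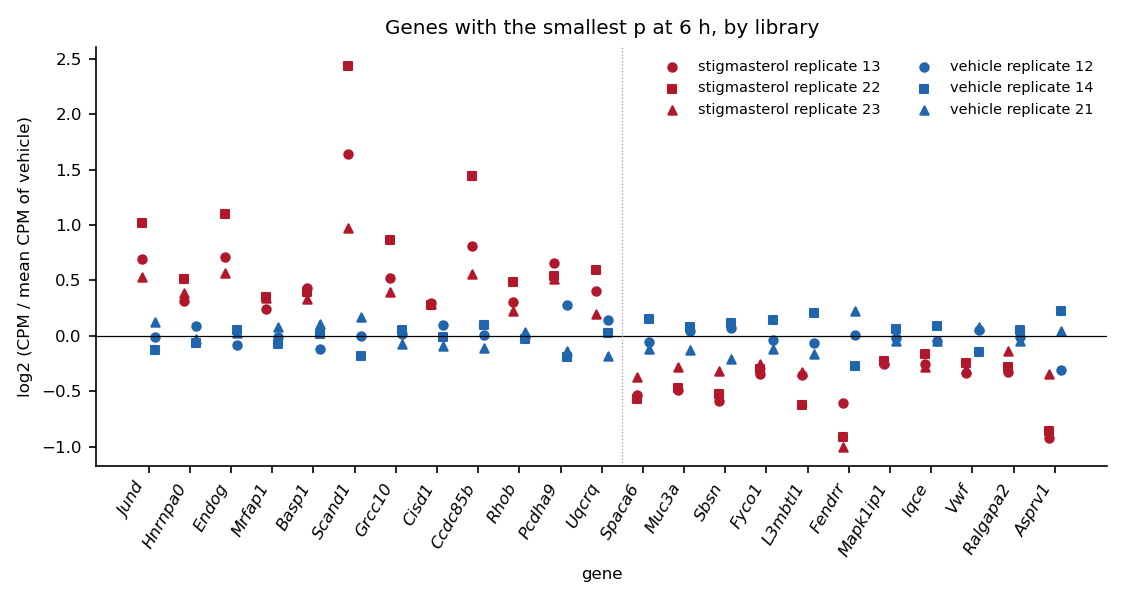
Log2 ratio of each library's CPM to the mean CPM of the 3 vehicle libraries (vertical axis) for the 23 named genes of smallest p (horizontal axis, 12 higher at left, 11 lower at right). Red symbols are stigmasterol libraries and blue symbols vehicle libraries, and in each gene the groups do not overlap because the set was chosen so.

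All genes of the list for cholesterol synthesis and uptake, the arm under SREBP-2, were fitted higher with stigmasterol, none of them past the test. The list also holds Fasn, Scd1 and Scd2, which make and desaturate fatty acids, at log2 fold changes of 0.02, 0.06 and 0.05. Of 28 genes, 28 had a log2 fold change above 0, with a median of 0.14 and a range from 0.02 to 0.45, against a median of 0.00 over all genes tested and 50% of genes above 0. None had an unadjusted p below 0.05, and 4 did not overlap between the groups (all 4 higher, against 3.47% of all genes), among them Mvd, Fdps and Pmvk, the last 2 named after their values were seen. The mean log2 CPM of the list was 5.43, 5.36 and 5.51 in the stigmasterol libraries and 5.20, 5.26 and 5.40 in the vehicle libraries. Vehicle replicate 21 thus reached the stigmasterol range, and replicate 22 lay below it. The median was 0.09 without stigmasterol replicate 23, with 23 of 28 genes higher, and 0.21 without vehicle replicate 21. Without vehicle replicate 12 the number higher was 22 of 28.

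Sqle, the squalene epoxidase that commits squalene to sterols, was at 67.3, 58.4 and 70.7 CPM against 50.6, 54.2 and 65.0 CPM. The groups overlapped through vehicle replicate 21 (log2 fold change 0.21 ± 0.10, adjusted p = 1.00). Mvd, which forms isopentenyl diphosphate, was at 23.2, 24.1 and 24.5 CPM against 17.5, 19.3 and 21.3 CPM without overlap (0.31 ± 0.16). In the annotation Mvd shares its position with the gene Gm20388 on the opposite strand, so its count is uncertain. Hmgcs1, whose promoter is printed above, was at 180, 156 and 203 CPM against 133, 152 and 192 CPM with overlap (0.18 ± 0.14).

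Further members overlapped between the groups. Insig1, the sterol-dependent anchor of SCAP, was at 43.1, 40.1 and 55.7 CPM against 36.3, 38.6 and 42.8 CPM (log2 fold change 0.24 ± 0.15), with replicate 23 the highest. Fdft1, which makes squalene, and Mvk, which phosphorylates mevalonate, had 0.19 ± 0.11 and 0.21 ± 0.12.

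The other arm of sterol control showed no common direction. Of 15 tested genes of LXR signalling and sterol efflux, 7 were higher and 8 lower, with a median log2 fold change of 0.00. Abca1, the exporter that loads cholesterol onto apolipoproteins and a direct LXR target, was at 66.9, 74.5 and 79.6 CPM against 82.3, 81.7 and 81.6 CPM. Its stigmasterol values lay below the tight vehicle values (-0.15 ± 0.08, 95% interval -0.33 to 0.03, adjusted p = 1.00). Apoe, the main cholesterol carrier of the brain, was at 1717, 2274 and 1391 CPM against 1475, 1654 and 1567 CPM, where replicate 22 alone stood high and the groups overlapped (0.20 ± 0.15, and -0.01 without replicate 22). Soat1, which esterifies cholesterol, had -0.14 ± 0.09. Of 13 genes of oxysterol and bile acid metabolism, 5 were higher (median -0.03). Cyp46a1, the neuronal hydroxylase that clears cholesterol from the brain, was at 174, 178 and 148 CPM against 168, 167 and 152 CPM (0.04 ± 0.09), and Ch25h had -0.33 ± 0.28.

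**Figure D3:**
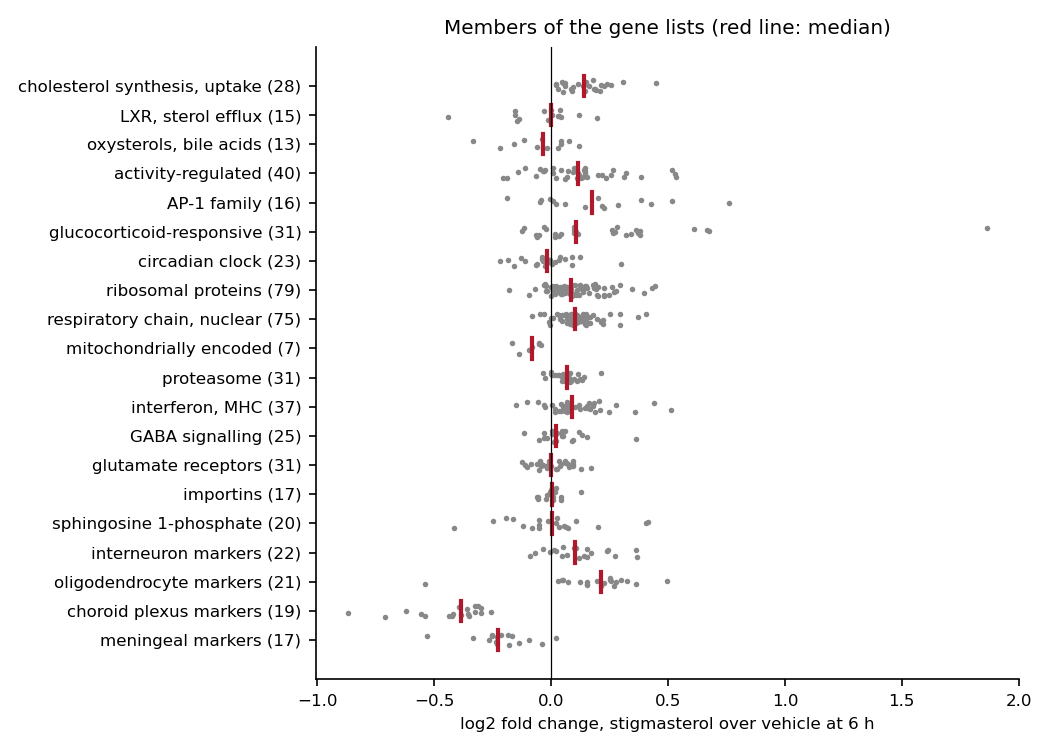
Log2 fold change at 6 h (horizontal axis) of each tested member of 20 gene lists (grey points, number tested in brackets). Red lines are list medians. All 28 members of the cholesterol list lie above 0 and all 19 choroid plexus markers below it, and no member passed the test.

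Activity-regulated genes, which neurons transcribe after firing, were more often higher. Of 40 genes, 31 were higher (median 0.12), 3 with an unadjusted p below 0.05 (all 3 higher, against 1.64% of all genes). The list's mean log2 CPM was 4.12, 4.22 and 4.09 in the stigmasterol libraries and 4.03, 4.09 and 3.96 in the vehicle libraries, without overlap but with replicate 23 close to vehicle replicate 14. Gadd45g, a stress-induced signalling protein, was at 17.3, 28.7 and 20.5 CPM against 16.3, 15.9 and 13.9 CPM without overlap (0.53 ± 0.16, adjusted p = 1.00). Junb, an inducible AP-1 subunit, was at 23.7, 34.1 and 21.6 CPM against 18.4, 21 and 16 CPM, also without overlap (0.52 ± 0.19). Egr4, an inducible zinc finger factor, was at 8.98, 11.9 and 6.17 CPM against 5.79, 6.20 and 6.67 CPM, and replicate 23 fell inside the vehicle range (0.53 ± 0.24).

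The classical immediate early genes Fos, Arc, Egr1 and Npas4 had differences smaller than their SE, so their direction was not resolved. Fos was at 3.56, 5.19 and 5.11 CPM against 3.24, 7.00 and 2.97 CPM (0.06 ± 0.39), with a sign that turned in 4 of the 6 fits that left out a library. Arc, which tunes synaptic receptor uptake, was at 92.8, 124 and 100 CPM against 86.5, 100 and 82.5 CPM (0.24 ± 0.38). Egr1 was at 63.7, 61.8 and 58.1 CPM against 58.6, 57.0 and 58.8 CPM (0.07 ± 0.24), and Npas4, the neuron-specific early factor, at 7.40, 14 and 10.5 CPM against 10.8, 15.5 and 8.01 CPM (-0.11 ± 0.29). The groups overlapped in all 4 genes. Of the 16 AP-1 family genes, which include Jund and Junb, 12 were higher (median 0.17, and 0.11 without replicate 22). In 4 of them the groups did not overlap, all 4 higher, against 3.47% of all genes.

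Glucocorticoid-responsive genes, a readout of stress hormone action, stood out in 1 library. Of 31 genes, 24 were higher (median 0.11), 5 with an unadjusted p below 0.05 (all 5 higher, against 1.64% of all genes). The list's mean log2 CPM was 5.12, 5.34 and 5.77 against 5.36, 5.17 and 5.21, so that only replicate 23 stood above the vehicle range. Without replicate 23 the median was 0.00, with 17 of 31 higher, and without replicate 13 it was 0.22. Lcn2, an iron-trapping acute phase protein, was at 1.52, 1.82 and 24 CPM against 3.27, 2.02 and 2.21 CPM (1.86 ± 0.79), and its log2 fold change was -0.59 without replicate 23. Fkbp5, the receptor co-chaperone that glucocorticoids induce most reliably, was at 74.4, 82.0 and 157 CPM against 93.9, 81.5 and 72.4 CPM (0.34 ± 0.23, and -0.08 without replicate 23). Tsc22d3, which encodes the anti-inflammatory protein GILZ, was at 86.9, 96.7 and 157 CPM against 104, 89.8 and 88.1 CPM (0.27 ± 0.18, and -0.03 without replicate 23).

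Replicate 23 was apart from all other libraries in these and further genes. With 0.5 CPM added to every value, it lay more than 1.5-fold above each of the other 5 libraries in 37 genes and below in 35, while the other libraries did so in 1 to 27 genes above and 1 to 12 below. Among the 37 were 8 genes of the glucocorticoid list, with Cdkn1a, an inhibitor of the cell cycle, at 7.34, 8.07 and 18.8 CPM against 8.97, 6.03 and 6.53 CPM, Angptl4, an inhibitor of lipoprotein lipase, at 3.35, 4.05 and 7.90 CPM against 3.39, 4.12 and 2.47 CPM, and Pdk4, the kinase that shuts pyruvate dehydrogenase, at 11.8, 11.7 and 20.5 CPM against 10.2, 10.4 and 13.2 CPM. Immune genes such as the chemokine Ccl12 (0.434, 0.778 and 2.86 CPM against 0.564, 0.683 and 0.870 CPM) and the cytokine receptor Il4ra (7.46, 9.14 and 16.4 CPM against 8.26, 7.39 and 9.25 CPM) were also high in it. The 35 low genes held 10 choroid plexus markers. In replicate 22 the 27 high genes included the peptidase Ecel1 (2.85, 7.94 and 2.80 CPM against 1.93, 2.82 and 3.05 CPM) and Dlx2, a forebrain patterning factor (3.47, 6.87 and 2.34 CPM against 3.51, 3.24 and 3.52 CPM).

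**Figure D4:**
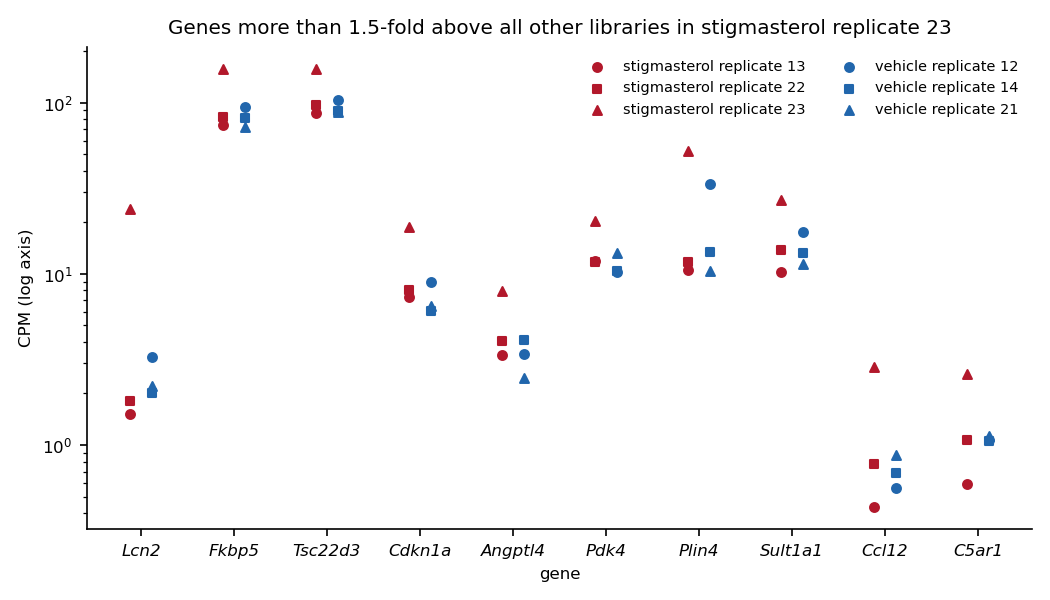
CPM (vertical log axis) in each of the 6 libraries for 10 genes that lay more than 1.5-fold above all other libraries in stigmasterol replicate 23 (red triangles), 8 of them from the glucocorticoid list. Other red symbols are stigmasterol replicates 13 and 22 and blue symbols the vehicle libraries, whose values mix.

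The inflammatory and acute phase list, with Lcn2, Cebpd and Cebpb among its 26 tested genes, was split, with 15 higher and 11 lower. Its median was 0.10, and -0.000266 without replicate 23. Among the other members of the stress lists that are named here, Cebpd and Cebpb lay above the vehicle range in all 3 stigmasterol libraries. Cebpd, a transcription factor that glucocorticoids and cytokines induce, was at 7.99, 12.5 and 7.90 CPM against 6.15, 6.11 and 5.48 CPM. The groups did not overlap, and the log2 fold change was 0.68 ± 0.19 (adjusted p = 1.00), or 0.79 without replicate 23. Its relative Cebpb was at 1.83, 3.27 and 3.44 CPM against 1.75, 1.65 and 1.56 CPM (0.78 ± 0.22, and 0.62 without replicate 23). Mt2, a metal-binding protein, was at 50.9, 57.0 and 77.6 CPM against 52.2, 50.5 and 41.6 CPM (0.36 ± 0.14), and Ddit4, which restrains mTOR signalling, at 56.9, 70.1 and 48.2 CPM against 44.2, 49.1 and 41.2 CPM (0.38 ± 0.16). Both overlapped between the groups. Sgk1, a kinase induced by corticosteroids, was at 75.5, 111 and 83.5 CPM against 97.7, 60.8 and 109 CPM (0.02 ± 0.20).

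The circadian clock list was balanced, with 9 of 23 genes higher and a median of -0.02. Nfil3, a repressor of the clock output genes, was at 8.61, 7.91 and 8.18 CPM against 6.24, 7.54 and 6.31 CPM without overlap (0.30 ± 0.13). Per2, a core clock repressor, was at 62.4, 71.2 and 72.8 CPM against 81.8, 74.8 and 78.4 CPM, also without overlap and in the other direction (-0.19 ± 0.12). Of 26 genes of the endoplasmic reticulum stress response, 21 were higher (median 0.08), and of 23 heat shock genes 19 (median 0.06). The first median was 0.03 without replicate 13 and 0.04, with 16 of 26 higher, without vehicle replicate 14, and the second was 0.03 without either of these and 0.09 without replicate 22. Hspa1a, the inducible HSP70, was at 3.22, 2.82 and 3.01 CPM against 2.70, 1.65 and 1.78 CPM (0.56 ± 0.22), but its near-identical copy Hspa1b makes the count uncertain.

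Genes for ribosomes, respiratory complexes and proteasomes leaned higher by small amounts. Of 79 cytosolic ribosomal protein genes 69 were higher (median 0.08), 4 with an unadjusted p below 0.05 (all 4 higher, against 1.64% of all genes higher and 4.1% in either direction). Rplp2, of the ribosomal stalk, was at 50.5, 57.1 and 48.4 CPM against 46.9, 42.6 and 39.2 CPM (0.28 ± 0.10), and Rps10 had 0.40 ± 0.14. Rps10 overlaps the gene RPS10-NUDT3 on its own strand, so its count is uncertain. Of 75 nuclear genes of the respiratory chain 69 were higher (median 0.10), 8 with an unadjusted p below 0.05 (all 8 higher, against the same shares). Cox8a, a small subunit of complex IV, was at 203, 237 and 179 CPM against 162, 169 and 148 CPM without overlap (0.37 ± 0.11). Uqcrfs1, the Rieske iron-sulphur subunit of complex III, was at 70.0, 66.9 and 70.3 CPM against 62.8, 59.5 and 55.6 CPM (0.22 ± 0.07), and Ndufa12, of complex I, at 26.3, 23.7 and 25.2 CPM against 20.5, 21.5 and 19.4 CPM (0.29 ± 0.09). Of 31 proteasome genes 27 were higher (median 0.07, from 0.03 without replicate 13 or vehicle replicate 21 to 0.11 without vehicle replicate 12), with Psmb4, a core subunit, at 0.21 ± 0.08. The 7 tested genes of the mitochondrial genome were all lower (median -0.08), although mt-Co1 ranged from 8165 to 14626 CPM within the stigmasterol group and from 9664 to 12867 CPM within vehicle (-0.04 ± 0.22). That direction rested on single libraries, since all 7 were higher without stigmasterol replicate 22 (median 0.07) and without vehicle replicate 21 (median 0.10), and the median was -0.02 without replicate 13, -0.18 without vehicle replicate 12 and -0.35 without replicate 23. Library means of these lists overlapped between the groups.

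These lists consist of short transcripts, and fold changes at 6 h followed transcript length. Over 15075 genes of at least 1 CPM, the Spearman correlation of the log2 fold change was -0.26 with transcript length and 0.20 with GC content, across genes, which are not independent replicates. The 3015 shortest genes, of 69 to 1987 bases, had a median log2 fold change of 0.06 with 66.6% of genes higher, and the 3015 longest one of -0.04 with 31.0% higher. Among the shortest genes the median deviation from the 6-library mean was 0.02, 0.08 and -0.03 in the stigmasterol libraries and 0.03, -0.05 and -0.05 in the vehicle libraries, so the groups overlapped. With the GC and length trends removed, the median of the ribosomal list was 0.04 with 53 of 79 higher and that of the respiratory list 0.06 with 64 of 75 higher. Leaving out vehicle replicate 21 gave medians of 0.04 and 0.06, leaving out vehicle replicate 12 gave 0.15 and 0.16, and the ribosomal median was 0.05 without stigmasterol replicate 22 and 0.14 without stigmasterol replicate 13.

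Long non-coding RNAs, a class singled out after its values were seen, were lower more often than not. Of 1181 such genes of at least 1 CPM, 861 were lower and 320 higher, with a median log2 fold change of -0.14, against 54.0% higher and a median of 0.01 over 13735 protein-coding genes. An unadjusted p below 0.05 was found for 118 lower and 7 higher long non-coding genes, against 2.46% lower and 1.64% higher over all genes tested. By library, the median deviation of the class was -0.13, -0.12 and 0.06 in the stigmasterol libraries and 0.05, 0.12 and 0.05 in the vehicle libraries. Replicate 23 thus stood at the vehicle level and replicates 13 and 22 below it. The class named TEC, loci still to be experimentally checked, had the widest gap of the large classes at a median of -0.25 with 212 of 243 lower, and antisense RNAs and lincRNAs had medians of -0.11 and -0.13. In the comparison at 1 h long non-coding RNAs were likewise lower more often, with a median of -0.11 and 339 of 1181 higher. The TEC median at 1 h was -0.22.

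Meg3, an abundant maternally expressed neuronal RNA, was at 4725, 4160 and 5092 CPM against 6009, 6933 and 5331 CPM. The groups did not overlap (log2 fold change -0.39 ± 0.14, adjusted p = 1.00). Miat, a nuclear RNA that binds splicing factors, was at 1092, 1154 and 1200 CPM against 1435, 1590 and 1206 CPM, where replicate 23 and vehicle replicate 21 almost met (-0.30 ± 0.11). Mir124a-1hg, the host transcript of a neuronal microRNA, was at 246, 247 and 288 CPM against 309, 320 and 287 CPM (-0.23 ± 0.08). Malat1, a nuclear speckle RNA, was at 465, 430 and 606 CPM against 541, 612 and 504 CPM with full overlap (-0.14 ± 0.15). The share of counts from long non-coding genes was 1.43%, 1.36% and 1.61% in the stigmasterol libraries and 1.72%, 1.85% and 1.59% in the vehicle libraries.

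**Figure D5:**
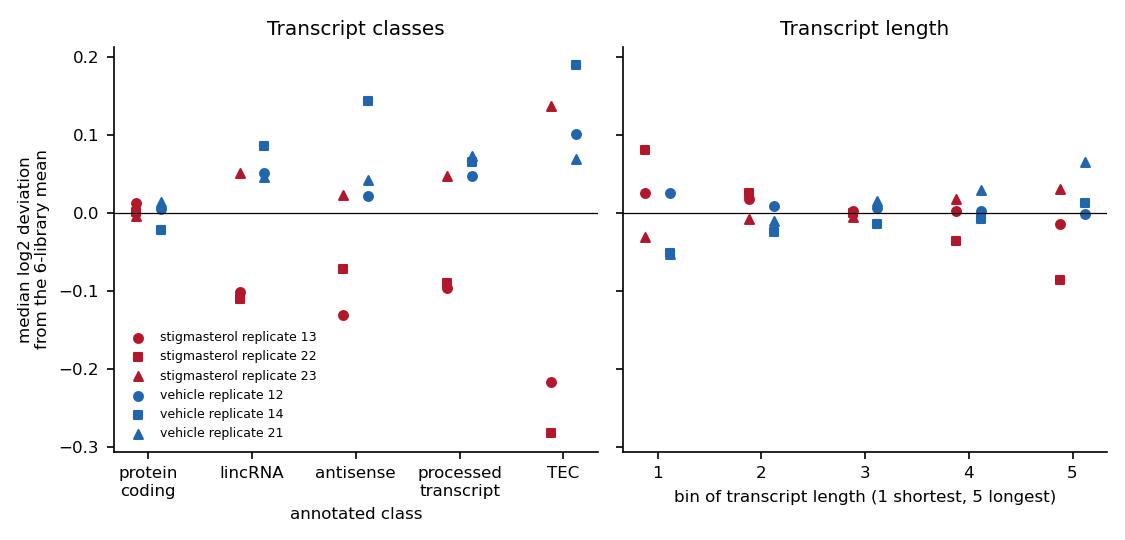
Median log2 deviation of each library from the 6-library mean (vertical axis) for 5 annotated transcript classes (left) and 5 bins of transcript length (right). Red symbols are stigmasterol and blue symbols vehicle libraries. Stigmasterol replicates 13 and 22 lie lowest in the 4 non-coding classes, while replicate 23 (red triangle) lies near vehicle.

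Genes of neuronal signalling differed little. Of 31 glutamate receptor genes 15 were higher (median 0.00, range -0.13 to 0.17), and for 30 of them the 95% interval stayed within 1.5-fold. Of 25 genes of GABA signalling 20 were higher (median 0.02). Slc32a1, which loads GABA into vesicles, was at 64.0, 72.0 and 46.9 CPM against 47.1, 47.3 and 47.9 CPM. Replicates 13 and 22 were high and replicate 23 was just below vehicle (0.36 ± 0.13, adjusted p = 1.00). Gad1 and Gad2, the enzymes that make GABA, had 0.12 ± 0.08 and 0.15 ± 0.08. Bdnf, the neurotrophin of activity-dependent plasticity, was at 30.3, 26.6 and 31.6 CPM against 27.3, 26.2 and 28.7 CPM (0.11 ± 0.10). Pcsk1n, a neuroendocrine inhibitor of prohormone convertase, was at 171, 274 and 132 CPM against 102, 104 and 99.1 CPM, and C1qtnf4, a secreted C1q-like protein, at 46.0, 55.3 and 37.2 CPM against 24.5, 23.9 and 23.1 CPM. In both, which were chosen after their values were seen, the groups were far apart and the stigmasterol values scattered (0.92 ± 0.25 and 0.95 ± 0.30, edgeR adjusted p = 1.00 each).

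In mice, loss of the nuclear import receptor Kpna1 has been linked to lower anxiety-related behaviour and to the kinase Sphk1, which makes sphingosine 1-phosphate. The 17 importin genes had a median of 0.00 with 10 higher, and the 95% interval of all 17 stayed within 1.5-fold. Kpna1 was at 107, 87.8 and 116 CPM against 99.6, 96.6 and 110 CPM (0.02 ± 0.10), and Ran, the GTPase that releases import cargo, at 52.9, 53.5 and 51.3 CPM against 48.6, 46.2 and 49.6 CPM without overlap (0.13 ± 0.07). Of 20 sphingosine 1-phosphate genes 10 were higher (median 0.00). Sphk1 was at 2.11, 2.82 and 3.71 CPM against 3.86, 2.53 and 3.52 CPM with overlap (-0.19 ± 0.34). S1pr5, the receptor of oligodendrocytes, was at 22.5, 20.6 and 20.9 CPM against 14, 13.6 and 20.7 CPM (0.41 ± 0.18), and Mfsd2b, an exporter of the lipid, at 2.45, 1.88 and 2.52 CPM against 3.33, 3.04 and 2.76 CPM (-0.41 ± 0.18).

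Cell type markers described the tissue taken. Snap25, a presynaptic fusion protein of neurons, was between 939 and 1228 CPM, Prox1, a marker of dentate granule cells, between 134 and 157 CPM, and Wfs1, a marker of the CA1 field, between 77.0 and 170 CPM over the 6 libraries, as hippocampal tissue shows them. Choroid plexus markers varied most. Ttr, the main secreted protein of choroid plexus epithelium, was at 903, 4099 and 356 CPM against 2321, 702 and 3630 CPM (-0.31 ± 1.27). All 19 plexus markers were lower (median -0.39), yet their summed level ran from 794 to 6400 CPM in the stigmasterol and from 1348 to 6379 CPM in the vehicle libraries. The median was 0.04 without replicate 23 and 0.05 without vehicle replicate 21, but -0.15 without replicate 13, -0.77 without vehicle replicate 14 and -1.49 without replicate 22. Of 17 meningeal fibroblast markers 16 were lower (median -0.23), with summed levels of 247 to 315 CPM against 254 to 363 CPM. That median was -0.05 without stigmasterol replicate 13, -0.07 without vehicle replicate 12, -0.08 without vehicle replicate 21 and -0.44 without vehicle replicate 14.

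Oligodendrocyte markers were higher in 20 of 21 cases (median 0.21), 1 of them with an unadjusted p below 0.05, against 4.1% of all genes. Their mean log2 CPM was 7.23, 7.01 and 6.92 against 6.82, 6.48 and 7.29, so that vehicle replicate 21 was the highest library of all. The median was 0.10 without stigmasterol replicate 13, 0.03 without vehicle replicate 14 and 0.46 without vehicle replicate 21. Olig1, a transcription factor of the lineage, was at 158, 167 and 130 CPM against 104, 101 and 118 CPM without overlap (0.50 ± 0.14, adjusted p = 1.00), whereas the myelin genes Cldn11 (236, 194 and 192 CPM against 157, 122 and 205 CPM, 0.36 ± 0.21) and Mbp (5243, 4651 and 4525 CPM against 3740, 3297 and 5418 CPM, 0.21 ± 0.25) overlapped. Of 22 interneuron markers 18 were higher (median 0.10, 0.02 without replicate 13 and 0.16 without replicate 23), with list means of 5.0, 4.82 and 4.81 log2 CPM against 4.77, 4.77 and 4.78, and with the peptide Sst at 149, 133 and 91.8 CPM against 102, 105 and 102 CPM (0.27 ± 0.16). In endothelial cells, Cldn5, the barrier tight junction protein, was at 32.7, 28.2 and 26.1 CPM against 25.7, 23 and 22.1 CPM (0.30 ± 0.10), and Emcn, a surface sialomucin, at 4.89, 4.93 and 4.32 CPM against 5.76, 5.55 and 6.09 CPM (-0.30 ± 0.11). In neither gene did the groups overlap, and 7 of the 18 endothelial markers were higher. In the dentate list Trpc6, a cation channel, had -0.27 ± 0.12, and 7 of 14 markers were higher. Of 37 interferon and antigen presentation genes 32 were higher (median 0.09), with Psmb8, of the immunoproteasome, at 0.44 ± 0.18. Their median was -0.00527 with 18 of 37 higher without vehicle replicate 12, 0.02 without vehicle replicate 14, and 0.28 with 35 of 37 higher without vehicle replicate 21.

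The effect at 6 h was set against the effect at 1 h by testing their difference in the same fit, with separate animals and separate vehicle groups at each time. Of 18382 genes, 0 (0%) passed an adjusted p of 0.05 and 425 (2.31%) had an unadjusted p below 0.05, with a smallest edgeR adjusted p = 1.00. At 1 h likewise 0 genes (0%) passed. The Spearman correlation of the 2 sets of log2 fold changes was 0.30 across 15075 genes. The genes with the smallest p of the difference were lower at 6 h and higher at 1 h. Podn, a proteoglycan of smooth muscle and connective tissue, had -0.43 ± 0.14 at 6 h and 0.60 ± 0.14 at 1 h, a difference of -1.03 ± 0.20. Podn overlaps the gene Scp2 on its own strand, so its count is uncertain. Vwf had a difference of -0.55 ± 0.12, the fibrillar collagen Col3a1 one of -1.12 ± 0.31, the matrix protein Coch one of -1.21 ± 0.33 and the proton pump subunit Tcirg1 one of -0.45 ± 0.13, each with an adjusted p = 1.00. Marker lists of tissues around the hippocampus had higher medians at 1 h than at 6 h, by little for thalamic markers. Striatal markers had a list median of 1.02 for the 1 h effect, all 15 higher, and 0.10 for the 6 h effect. In the same order, ependymal markers had 0.50 and 0.06, cortical layer markers 0.32 and 0.02, and thalamic markers 0.10 and 0.07. Without stigmasterol replicate 22 the 6 h values were -0.03 for striatal and -0.22 for ependymal markers. For thalamic markers the 6 h value ran from 0.085 without stigmasterol replicate 22 to 0.17 without vehicle replicate 21. The order of the 2 times is therefore not settled for thalamic markers. The part of these lists in the difference was not tested. The median log2 fold change of the meningeal list was 0.63 at 1 h and -0.23 at 6 h, and that of the plexus list 1.42 and -0.39, both of them moved by single libraries at 6 h as given above, and their part in the difference was not tested.

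Side by side, a selection of the other lists had these medians at 1 h and at 6 h. The cholesterol list had 0.08 and 0.14, activity-regulated genes 0.22 and 0.12, AP-1 family genes 0.27 and 0.17, and glucocorticoid-responsive genes 0.12 and 0.11. Ribosomal protein genes had 0.08 and 0.08, nuclear respiratory genes 0.09 and 0.10, oligodendrocyte markers 0.48 and 0.21, and dentate granule cell markers -0.28 and -0.02. No list was tested for a difference between the times. Of single genes, Jund had log2 fold changes of 0.87 ± 0.15 and 0.76 ± 0.15, Hnrnpa0 of 0.25 and 0.41, Basp1 of 0.22 and 0.39, Mrfap1 of 0.10 and 0.31 and Spaca6 of -0.22 and -0.49.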

How the data were processed

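Per the labels, RNAqueous-Micro kits gave the RNA, only material of RIN 7 or above went on, and libraries used TruSeq mRNA chemistry. The submitters' processing notes name the build GRCm38, the aligner STAR 2.4.2a and the counter HTSeq 0.6.1p1, beside DESeq2 1.10.1, DESeq, cutadapt and bcl2fastq 2.17.1.14, without their order. The raw table deposited by the authors holds whole read counts per gene, and every test used it. The normalized table deposited by the authors holds signal values, which equal the counts over 1 size factor per library to within 0.00545, and it served 1 alternative.

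Of 21532 genes, 21501 matched GENCODE M21, which gave positions, lengths and classes. Overlaps with other genes are not given for every gene named. Junb, Cebpb, Cebpd and Pcsk1n, among others, also overlap protein-coding genes on the opposite strand. In R 4.3.3 with edgeR 4.0.16, filterByExpr, TMM scaling and a quasi-likelihood fit of all 12 libraries with 1 coefficient per group were used (common biological coefficient of variation 0.123), with Benjamini-Hochberg adjustment over 18382 genes and a threshold of 0.05. SE is the absolute log2 fold change over the square root of F. The code was tested on simulated data. Replicates are separate samples per the labels, and p-values set each difference against the spread between samples. That spread was estimated within the groups of all 12 libraries, those at 1 h included, and shared in part across genes. It is therefore not the spread of the 6 h libraries alone. Total counts of 27613253 to 34805747 gave a median SE of 0.117.

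Genes named are the 12 higher and 12 lower of smallest p without overlap at 1 CPM or more that carry a gene name, the 5 most abundant protein-coding genes, up to 4 of smallest p per list, a set of sterol, activity, stress and importin genes, and 5 of smallest p for the difference between times. Some genes that the rule allows are not reported here. Otoa, Lbhd2, Capn11, the genes apart in 1 library, the long non-coding RNAs, Pcsk1n, C1qtnf4, Fdps and Pmvk were chosen after their values were seen. Members and lists were chosen with earlier results of these data known, and no list was tested. Alternatives were other scalings and filters, DESeq2 1.42.0, limma 3.58.1 (voom and trend), a robust fit, only the libraries at 6 h, a plexus covariate, GC and length correction, a threshold of 0.1, and omitting each library at 6 h in turn.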

Additional observations from a re-analysis of the deposited data

How the results depend on the processing

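The count of 0 genes past the threshold at 6 h held in 17 of 18 alternatives, and the DESeq2 Wald test gave 4. The lists of genes past an unadjusted p of 0.05 held between 482 (only the libraries at 6 h) and 1997 genes (without stigmasterol replicate 23), against 754. Leaving out single libraries gave 0 genes in each case, for the effect at 6 h and for its difference from 1 h, and the latter was 0 in all 17 alternatives that could be fitted. It has no value with only the libraries at 6 h. No paired analysis was possible because the groups share no replicate numbers.

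Over 99 genes and 1675 alternative values, 30 values had the other sign, in 15 genes whose sign is therefore not settled. An unchanged sign does not settle that of the other genes, since all fits reuse the same libraries and no gene passed the edgeR test. Of the 15 genes, Cyp46a1 was at -0.0126 with the GC and length trends removed, and the cause was not tested. Ttr was at 0.19 with the plexus covariate. That covariate is the mean log2 CPM of the plexus markers, Ttr among them, so this fit takes the shared plexus level out of Ttr by construction. Leaving out 1 library in turn gave log2 fold changes of -0.00956 to 0.35 for Apoe, -0.00831 to 0.12 for Cyp46a1, -0.59 to 2.37 for Lcn2, -0.0789 to 0.53 for Fkbp5, -0.0332 to 0.43 for Tsc22d3, -0.20 to 0.18 for Sgk1, -0.15 to 0.57 for Fos, -0.36 to 0.17 for Npas4, -0.35 to 0.11 for mt-Co1, -0.0672 to 0.13 for Kpna1, -1.82 to 0.24 for Ttr, -0.21 to 1.38 for Ccl12, -0.23 to 0.59 for Dlx2, -0.44 to 3.94 for Lbhd2 and -0.36 to 0.12 for Coch. List medians moved by more than the spread between replicates in 14 of 680 cases. That count does not show stability, since lists that vary most between libraries also have the widest spread. The plexus median of -1.49 without stigmasterol replicate 22, against -0.39, counted as not moved because the spread of that list was 1.20. Medians close to 0 turned sign when 1 library was left out, with ranges of -0.0749 to 0.0308 for the LXR list, -0.0449 to 0.0101 for the oxysterol list, -0.0515 to 0.0623 for the importin list, -0.0434 to 0.0535 for the sphingosine 1-phosphate list, -0.0301 to 0.0142 for the circadian list, -0.0393 to 0.0469 for the glutamate receptor list, -0.00679 to 0.10 for the GABA list and -0.10 to 0.0713 for the dentate granule cell list.

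With 3 libraries a group, the 95% interval stayed within 1.5-fold for 83.2% of genes of at least 1 CPM, and smaller differences were not resolved here, which does not show their absence.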
